A study of Mus musculus with 16 samples.

Results

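The 46 genes described here encode proteins of the lysosome and of autophagy. They were taken as a fixed list of mouse symbols, chosen with earlier results of these data known. Shares of the list set beside those of all genes are therefore descriptions. By symbol and Ensembl identifier, all 46 were found among the 33072 genes of the count table. RNA had been sequenced from the mouse lines 4T1, which is metastatic, and 67NR, which is not, both derived from a single spontaneous mammary tumor of a BALB/c mouse. Each line was treated for 24 h with vehicle (DMSO) or with 15 µM CIX, a low-molecular inhibitor of cPLA2α, the phospholipase that releases arachidonic acid from membranes. There were 4 groups of 4 biological replicates, 16 samples in all, and no other allele or agent distinguished the groups. Each line is a single established cell line, so that a difference between 4T1 and 67NR is a difference between these lines. The comparisons ask how cells of each line responded to CIX, whether the response differed between the lines, and how the lines differed without CIX.

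Lysosomes are acidic organelles in which hydrolases break down proteins, glycans and lipids. The vacuolar ATPase pumps protons into them, membrane glycoproteins line them, and autophagosomes deliver cytoplasm to them after the LC3 and GABARAP proteins have been joined to the autophagosome membrane. The transcription factors TFEB and TFE3 are known to switch on many lysosomal and autophagy genes when the lysosome is stressed, by binding a palindromic promoter sequence that contains the letters CACGTG.

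That sequence is shown first, because it is the known link between the transcription factors and the other genes of the list. Promoters of 300 bases, from 250 bases before to 50 bases after the transcription start, were read from RefSeq on GRCm38.p6, which matched 40 of the 46 genes. Letters were searched on both strands, which for these palindromes gives the same matches, and the longer motif holds the shorter. The letters CACGTG stood in the promoters of 10 of 40 genes (25.0%), in 33 of 135 other lysosome and autophagy genes (24.4%) and in 8.09% of all 27025 genes with a promoter. The letters TCACGTGA stood in 6 of 40 (15.0%), in 11 of 135 (8.15%) and in 1.12% of all genes. Windows around these matches follow, 5′ to 3′ on the strand of the gene, with the motif in capitals. They lie at chr2:164833750-164833777 and chr2:164833767-164833794 (plus strand) for Ctsa, chr7:142387909-142387936 (minus) for Ctsd, chr8:3500463-3500490 (plus) for Mcoln1, chr8:105566051-105566078 (minus) for Atp6v0d1, and chrX:134601216-134601243 and chrX:134601183-134601210 (minus) for Gla.
Ctsa, from -13: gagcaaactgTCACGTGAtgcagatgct
Ctsa, from 5: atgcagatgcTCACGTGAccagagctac
Ctsd, from -99: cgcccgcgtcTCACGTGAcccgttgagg
Mcoln1, from -46: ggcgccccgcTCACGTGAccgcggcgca
Atp6v0d1, from -4: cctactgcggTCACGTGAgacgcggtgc
Gla, from -228: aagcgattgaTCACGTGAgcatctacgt
Gla, from -195: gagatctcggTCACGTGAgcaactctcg
The number after each name is the position of the first capital from the transcription start.

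The sixth gene with TCACGTGA was Atp6v1a, whose match began at -132. Its 250 bases before the start (chr16:44139260-44139509, minus strand) are given with those of Trp53inp2 (chr2:155381606-155381855, plus strand) and Cd68 (chr11:69666171-69666420, minus strand), which held neither motif, since the response of these 3 genes to CIX is described below at length.
Atp6v1a: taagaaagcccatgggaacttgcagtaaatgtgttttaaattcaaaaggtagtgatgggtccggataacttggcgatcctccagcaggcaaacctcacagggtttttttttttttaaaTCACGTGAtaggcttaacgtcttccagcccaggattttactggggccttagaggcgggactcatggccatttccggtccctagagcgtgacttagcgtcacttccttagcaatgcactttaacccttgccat
Trp53inp2: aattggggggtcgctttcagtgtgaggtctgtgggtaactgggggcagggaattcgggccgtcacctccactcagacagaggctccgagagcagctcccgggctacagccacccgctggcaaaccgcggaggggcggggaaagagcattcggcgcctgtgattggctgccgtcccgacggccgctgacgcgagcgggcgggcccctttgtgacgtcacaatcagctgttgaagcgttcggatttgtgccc
Cd68: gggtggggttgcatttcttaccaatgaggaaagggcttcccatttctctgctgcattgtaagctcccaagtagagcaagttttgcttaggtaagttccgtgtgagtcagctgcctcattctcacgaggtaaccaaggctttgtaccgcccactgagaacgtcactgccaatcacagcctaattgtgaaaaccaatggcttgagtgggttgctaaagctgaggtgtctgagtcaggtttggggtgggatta
A match is a description of letters, and no match says only that these letters were not in this window. The RefSeq start used is not always the start of the annotated gene. The stretches of Atp6v1a and Trp53inp2 lie inside the annotated spans of these genes, and bases before those spans were not searched.

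The total estimated count per sample was between 21715700 and 29450629, and levels of a gene are given as CPM (counts scaled by library size) after TMM scaling. At this depth 3 counts, taken as the floor of detection, correspond to between 0.102 and 0.138 CPM, which covers counting error only. Mitochondrial genes took 0.377% of the counts in 67NR CIX sample 10 and between 1.14% and 1.43% in the other 67NR CIX samples. Their share was between 1.34% and 1.76% in 67NR vehicle samples. It was between 0.498% and 0.926% in 4T1 vehicle and between 0.4355% and 0.812% in 4T1 CIX samples. Epithelial markers summed to between 1.07 and 5.16 CPM in 67NR samples and to between 2370 and 2780 CPM in 4T1 samples, so that 67NR, labelled a mammary carcinoma, all but lacked these defining markers. Fibroblast markers summed to between 186 and 200 CPM in 67NR with vehicle, 236 and 299 CPM in 67NR with CIX, 49.4 and 60.4 CPM in 4T1 with vehicle and 49.3 and 57.5 CPM in 4T1 with CIX. Most of each sum was Pdgfra, without which the markers summed to at most 66.4 CPM in 67NR and 3.77 CPM in 4T1. Pla2g4a, which encodes cPLA2α and whose product the inhibitor binds, stood at 60.2, 80.9, 76.5 and 326 CPM in 67NR vehicle samples 1, 5, 9 and 13, and at 65.4, 92.7, 162 and 57.4 CPM in 4T1 vehicle samples 3, 7, 11 and 15. These are bulk samples, in which fewer cells of a kind and less RNA per cell cannot be told apart.

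Levels of different genes were compared per length, in TPM (counts scaled by transcript length and library). The cysteine protease cathepsin L (Ctsl) was the highest of the list in all 4 groups, at 1468 ± 126 TPM (SD, n = 4) in 67NR with vehicle and 2035 ± 284 TPM in 4T1 with vehicle. The growth factor precursor and lysosomal protein progranulin (Grn) followed in both vehicle groups, at 987 ± 99.3 TPM in 67NR and 1822 ± 154 TPM in 4T1. Sqstm1, the selective autophagy receptor p62, came next at 818 ± 75.4 TPM in 67NR and 1202 ± 42.6 TPM in 4T1. The 6 highest genes made up 58.8% of the summed level of the list in 67NR with vehicle and 56.4% in 4T1 with vehicle, so that most of the list lay far below them. The median of the 43 tested genes was 69.6 TPM in 67NR and 109 TPM in 4T1 with vehicle.

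In sum the 46 genes took between 8424 and 10090 TPM in the 67NR vehicle samples and between 10600 and 11080 TPM in the 67NR CIX samples. In 4T1 they took between 12530 and 12900 TPM with vehicle and between 11450 and 12600 TPM with CIX. The summed level of the list was thus higher in each CIX sample than in each vehicle sample of 67NR, while in 4T1 the ranges overlapped.

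The osteoclast protease Ctsk, the protease of antigen presenting cells Ctss and the osteoclast subunit of the vacuolar ATPase Atp6v0d2 did not pass the filter on low values in any comparison (TPM below 1 in more than 3 samples). Ctsk stood between 0.0366 and 0.515 CPM, with 1 to 12 counts a sample. Ctss and Atp6v0d2 had 0, 1 or 2 counts in each of the 16 samples. The other 43 genes were tested in each comparison.

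Replicates lay close together for most genes. The median coefficient of variation of the 43 genes was 10.2% in 67NR vehicle, 7.23% in 67NR CIX, 11.4% in 4T1 vehicle and 11.0% in 4T1 CIX samples. Wipi1, which encodes a phosphoinositide binding protein of the early autophagosome, was the exception in each group, with levels of 79.2, 76.4, 38.5 and 194 CPM in 67NR vehicle samples and 116, 142, 265 and 42.4 CPM in 4T1 vehicle samples. With CIX, Wipi1 stood at 147, 104, 88.0 and 41.6 CPM in 67NR and at 250, 52.7, 104 and 92.3 CPM in 4T1, and all 4 groups overlapped. Tfeb stood at 6.27, 6.39, 16.98 and 3.77 CPM in the 4T1 vehicle samples and the lysosomal α-glucosidase gene Gaa at 173, 331, 532 and 175 CPM, the highest of each in sample 11. Wipi1 thus spread widely in each group, Tfeb in the 4T1 vehicle and 67NR CIX groups, and Gaa in the 4T1 vehicle group.

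CIX against vehicle in 4T1 cells called 2 of the 43 tested genes, Cd68, which rose, and Trp53inp2, which fell. The test was limma-voom over the 8 samples of the line, with Benjamini-Hochberg adjustment and 0.001 as the limit for a call. In this comparison 9.32% of 11664 tested genes were called, 5.34% as higher and 3.98% as lower. The share of higher genes among those called was 57.3%, and 45.7% on log2(TPM + 1). The share of the list (4.65%) was thus below that of all genes. At an adjusted p below 0.05, 18 genes (41.9%) passed, near the 42.7% of all genes, of which 6 (14.0%) were higher against 21.9% of all genes and 12 (27.9%) lower against 20.8%. Without 4T1 vehicle sample 7 this count of 18 was 10. The CIX and vehicle samples did not overlap for 14 genes (32.6%), against 39.7% of all genes, with 6 higher (14.0%, against 22.3%) and 8 lower (18.6%, against 17.3%). The median log2 fold change of the list was -0.14, beside -0.01 for all genes tested. Without 4T1 vehicle sample 11 it was -0.0592.

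**Figure D1:**
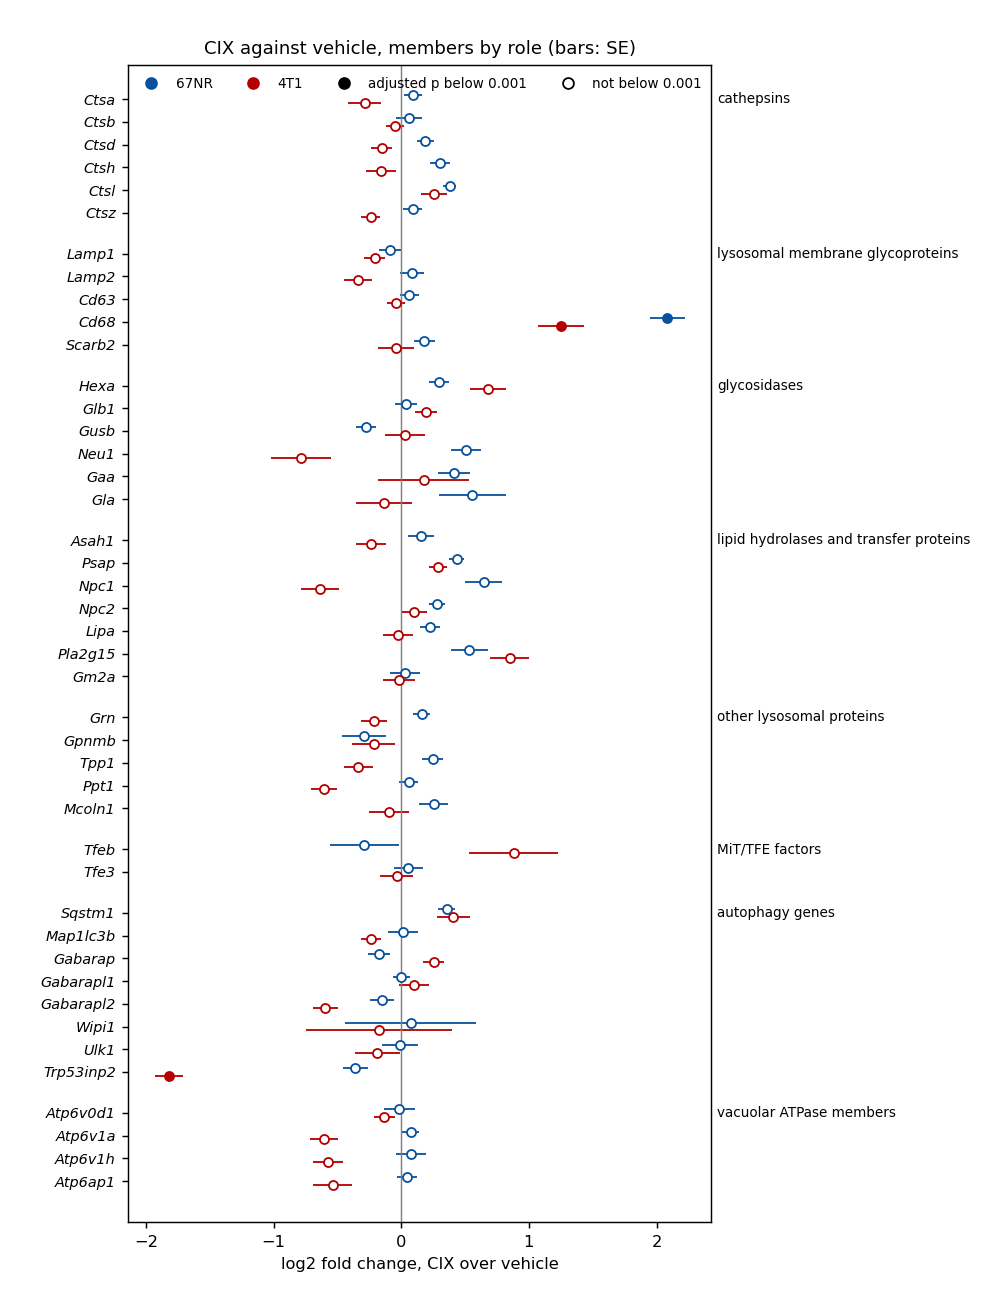
log2 fold change of CIX over vehicle (x axis) for the 43 tested genes, in rows grouped by role, in 67NR (blue) and 4T1 (red), with bars of 1 standard error and filled points where the adjusted p was below 0.001. Cd68 stands far to the right in both lines, Trp53inp2 far to the left in 4T1, and 33 of 43 points lie above 0 in 67NR against 13 of 43 in 4T1.

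Trp53inp2 encodes a scaffold that binds LC3 and GABARAP proteins and moves between nucleus and autophagosome. The gene lies at chr2:155381059-155389850 on the plus strand of GRCm38. The stretch printed above lies inside this span, before a RefSeq start that is itself inside it. It stood at 62.9, 68.0, 66.5 and 65.1 CPM in the 4T1 vehicle samples and at 20.4, 21.5, 18.7 and 16.6 CPM in the 4T1 CIX samples. All CIX samples were at or below 21.5 CPM and no vehicle sample was near it. The gene fell by 1.82 (SE 0.11) on the log2 scale, a level 3.53-fold lower (adjusted p = 4.25e-05), and it was called in each of 8 fits with a sample left out. In 67NR it stood at 69.0, 63.1, 63.9 and 51.2 CPM with vehicle and at 50.3, 45.1, 45.1 and 53.4 CPM with CIX. Here the groups overlapped through vehicle sample 13 and CIX sample 14, and the log2 fold change was -0.36 (SE 0.10, adjusted p = 0.0361), which was not called.

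Cd68 encodes a heavily glycosylated protein of late endosomes and lysosomes that is best known from macrophages, and its gene lies at chr11:69664213-69666153 on the minus strand. It stood at 51.4, 71.2, 87.9 and 62.7 CPM in the 4T1 vehicle samples and at 133, 199, 184 and 151 CPM in the 4T1 CIX samples. Each CIX sample lay above each vehicle sample. The level rose 2.38-fold (log2 fold change 1.25, SE 0.18, adjusted p = 0.000684). The call was lost in 6 of 8 fits with a sample left out (4T1 vehicle 3, 7 or 15, or 4T1 CIX 8, 12 or 16), while over all 8 fits the log2 fold change stayed between 1.12 and 1.37 and the adjusted p at or below 0.00295.

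Markers of macrophages and other leukocytes were set beside Cd68. The 10 markers summed to between 3.24 and 6.51 CPM in the 4T1 vehicle samples and to between 1.64 and 2.60 CPM in the 4T1 CIX samples. In 67NR they summed to between 0.532 and 0.856 CPM with vehicle and to between 0.617 and 1.19 CPM with CIX. The defining markers Adgre1 and Tyrobp were at 0 in all 16 samples, and none of the 10 reached 1 TPM in all samples of any group. In 4T1 the summed marker level was thus lower in the group in which Cd68 was higher.

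**Figure D2:**
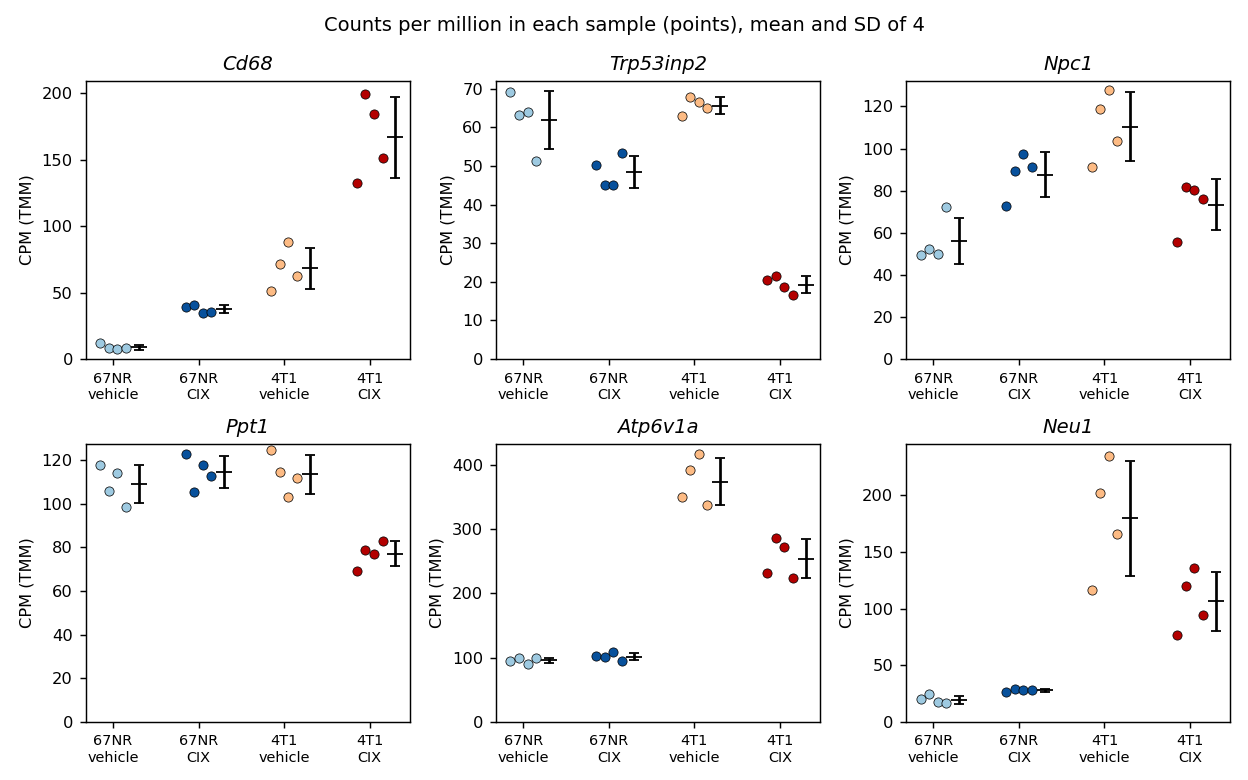
CPM after TMM scaling (y axis, from 0) of 6 genes in each of the 16 samples (points, in order of sample number within a group), with the mean and SD of the 4 samples of a group as a bar beside them. Cd68 is higher with CIX in both lines, Trp53inp2 is low in the 4T1 CIX samples alone, and Npc1 lies above vehicle in 67NR and below it in 4T1.

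The other autophagy genes of the list were not called in 4T1 by limma-voom over the samples of the line. Gabarapl2, a member of the GABARAP family, stood at 112, 113, 124 and 99.1 CPM with vehicle and at 76.1, 76.9, 81.9 and 71.6 CPM with CIX, without overlap (log2 fold change -0.59, SE 0.09, adjusted p = 0.00113). It missed the threshold narrowly and was below it with DESeq2, with all 16 samples in the fit, with sample weights, with library size scaling and on log2(TPM + 1). Its transcripts share 15.2% of their 31-base words with other genes, foremost the pseudogene Gm3724. Its relative Gabarap, in contrast, had a log2 fold change of 0.25 (SE 0.08, adjusted p = 0.0335) and Map1lc3b, which encodes LC3B, one of -0.24 (SE 0.08, adjusted p = 0.04). Map1lc3b shares 7.74% of its words with other genes, and it overlaps Gm20388, at up to 224 CPM, on the same strand. Sqstm1 had a log2 fold change of 0.41 (SE 0.13, adjusted p = 0.032), with 1124 CPM in 4T1 CIX sample 4 and between 1542 and 1836 CPM in the other CIX samples, against 1045 to 1173 CPM with vehicle. Gabarapl1, the kinase gene Ulk1, and Wipi1 had log2 fold changes between -0.19 and 0.10 and adjusted p from 0.416 to 0.825.

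Genes of lysosomal lipid breakdown and transfer went different ways in 4T1. Npc1, the membrane protein that exports cholesterol from the lysosome, stood at 91.1, 119, 128 and 104 CPM with vehicle and at 55.8, 81.7, 80.1 and 76.0 CPM with CIX (log2 fold change -0.64, SE 0.15, adjusted p = 0.00782). No CIX sample reached the lowest vehicle sample. Pla2g15, the lysosomal phospholipase A2, stood at 13.4, 15.2, 21.4 and 18.8 CPM with vehicle and at 30.9, 29.1, 36.2 and 29.95 CPM with CIX (log2 fold change 0.85, SE 0.16, adjusted p = 0.00231), also without overlap but the other way. Psap, the precursor of the saposins that activate sphingolipid hydrolases, had a log2 fold change of 0.29 (SE 0.07, adjusted p = 0.0121). None of these was called by limma-voom over the samples of the line. DESeq2 called Npc1 and Pla2g15, and Pla2g15 was also called with all 16 samples and with sample weights. The acid ceramidase gene Asah1, the cholesterol binding Npc2, the acid lipase Lipa and the ganglioside activator Gm2a had log2 fold changes between -0.24 and 0.10, with adjusted p of 0.131 and above.

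Among glycosidases and proteases no gene was called in 4T1 by limma-voom over the samples of the line. Hexa was called by DESeq2 and with all 16 samples in the fit, and Ppt1 in 4 of 9 other fits. Hexa, the α subunit of β-hexosaminidase, stood at 16.2, 14.5, 12.5 and 17.2 CPM with vehicle and at 25.1, 27.0, 21.9 and 25.6 CPM with CIX (log2 fold change 0.68, SE 0.14, adjusted p = 0.00439). The sialidase gene Neu1 stood at 117, 202, 235 and 166 CPM with vehicle and at 76.7, 120, 135 and 94.4 CPM with CIX, and the groups overlapped (log2 fold change -0.79, SE 0.23, adjusted p = 0.0232). Ppt1, the thioesterase that removes palmitate from proteins, stood at 125, 115, 103 and 112 CPM with vehicle and at 69.3, 78.9, 77.1 and 83.1 CPM with CIX, without overlap (log2 fold change -0.61, SE 0.10, adjusted p = 0.00134). The peptidase gene Tpp1 had a log2 fold change of -0.34 (SE 0.11, adjusted p = 0.0382) and the carboxypeptidase gene Ctsz one of -0.24 (SE 0.07, adjusted p = 0.0262). The membrane glycoprotein gene Lamp2 had one of -0.34 (SE 0.11, adjusted p = 0.032). The 5 other tested cathepsin genes lay between -0.29 and 0.26, with adjusted p of 0.0657 and above.

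Subunits of the vacuolar ATPase lay below 0 in 4T1. Atp6v1a, the catalytic A subunit of the cytosolic V1 part, stood at 350, 392, 417 and 337 CPM with vehicle and at 232, 287, 272 and 224 CPM with CIX, without overlap (log2 fold change -0.61, SE 0.11, adjusted p = 0.002). Atp6v1h, the regulatory H subunit, stood at 74.4, 79.4, 72.6 and 68.4 CPM with vehicle and at 42.0, 53.8, 52.3 and 57.4 CPM with CIX (log2 fold change -0.57, SE 0.11, adjusted p = 0.00359). For both, each CIX sample was below each vehicle sample, and neither was called by limma-voom over the samples of the line. DESeq2 and the fit with all 16 samples called both, and sample weights called Atp6v1h. The accessory subunit Atp6ap1 had a log2 fold change of -0.54 (SE 0.16, adjusted p = 0.0201) and the stalk subunit Atp6v0d1 of the membrane part one of -0.13 (SE 0.08, adjusted p = 0.222).

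Of 16 other tested subunits and accessory proteins of the pump, limma-voom over the samples of the line called 0 in 4T1. Of them, 10 had an adjusted p below 0.05, all lower (62.5% against 20.8% of all genes). The study, with limma-voom at the same threshold, lists Atp6v1b2, Atp6v1c1, Atp6v1d, Atp6v1e1 and Atp6v0e2 among its differentially expressed genes in 4T1. It also lists Atp6v1a and Atp6v1h. An unadjusted p was below 0.05 for 10 of the 16 (62.5%, against 51.1% of all genes). At the adjusted threshold of 0.001 edgeR called 0 and DESeq2 7 of the 16. Of all 11664 genes, edgeR called 1033 and DESeq2 3095. Together with the genes of the list, 19 of 20 tested genes of the pump had a log2 fold change below 0, with a median of -0.51. Atp6v0a2, singled out after its values were seen, lay farthest out, at 125, 190, 203 and 189 CPM with vehicle and at 49.0, 6.05, 20.7 and 47.4 CPM with CIX (log2 fold change -2.94, SE 0.52, adjusted p = 0.00198). In 67NR the same gene stood between 25.9 and 284 CPM over CIX samples and between 74.98 and 237 CPM over vehicle samples, so that its replicates spread far apart there. In 67NR limma-voom called 0 of 19 tested genes of the pump and none had an adjusted p below 0.05. There 2 had an unadjusted p below 0.05 (10.5%, against 32.8% of all genes), DESeq2 and edgeR called 0, 8 lay below 0 and 11 above, and the median was 0.03.

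**Figure D3:**
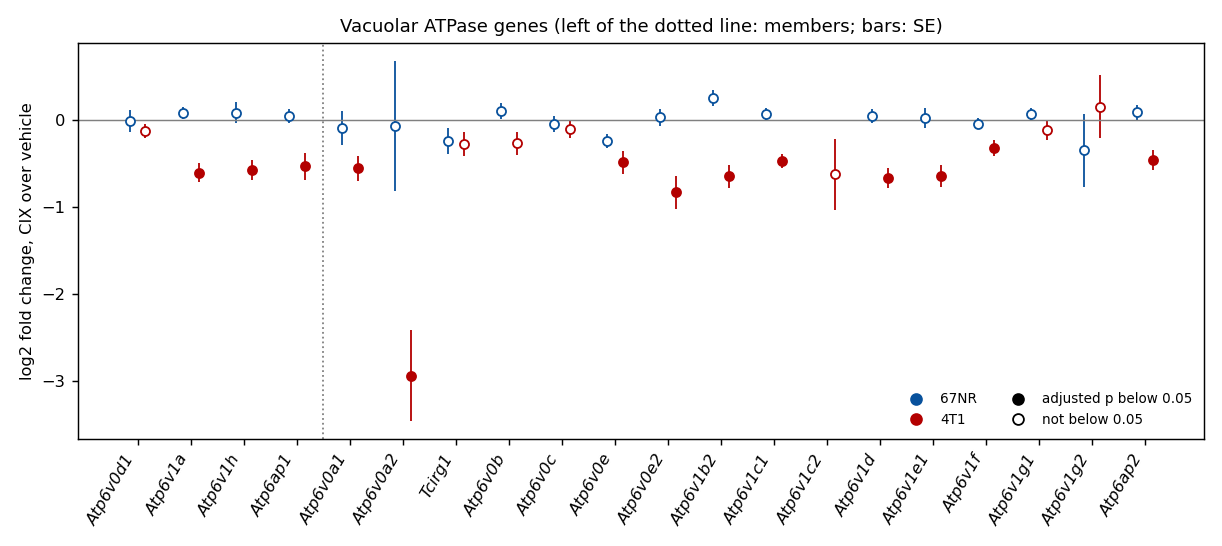
log2 fold change of CIX over vehicle (y axis) for genes of the vacuolar ATPase, members of the list left of the dotted line and other subunits right of it, in 67NR (blue) and 4T1 (red), with bars of 1 standard error and filled points where the adjusted p was below 0.05. In 4T1, 19 of 20 points lie below 0 and 13 are filled, whereas no 67NR point is filled.

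CIX against vehicle in 67NR cells called 1 of the 43 genes, Cd68. In this comparison 0.389% of 11566 genes were called, 0.182% as higher and 0.208% as lower. At an adjusted p below 0.05, 12 genes of the list passed (27.9%, against 17.8% of all genes), 10 of them higher (23.3%, against 8.52%) and 2 lower (4.65%, against 9.26%). This count of 12 was 5 without vehicle sample 9, 6 without CIX sample 6, and 7 without vehicle sample 1 or 5 or CIX sample 10. The CIX and vehicle samples did not overlap for 15 genes (34.9%, against 23.3% of all genes), and for each of these the CIX samples were the higher, while of all genes 12.5% were apart as higher and 10.8% as lower. The fibroblast markers moved with CIX in 67NR too, and in both directions. Pdgfra went from between 125 and 134 CPM with vehicle to between 194 and 263 CPM with CIX, while the other 5 summed to between 52.6 and 66.4 CPM with vehicle and to between 34.8 and 42.9 CPM with CIX. Their part in these results was not tested. The median log2 fold change of the list was 0.08, beside -0.01 for all genes tested.

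Cd68 stood at 11.8, 7.98, 7.52 and 7.96 CPM in the 67NR vehicle samples and at 39.4, 40.3, 34.6 and 35.0 CPM in the 67NR CIX samples. The lowest CIX sample was well above the highest vehicle sample. The level rose 4.24-fold (log2 fold change 2.08, SE 0.14, adjusted p = 0.000297). The call was lost in 5 of 8 fits with a sample left out (67NR vehicle 5 or 9, or 67NR CIX 6, 10 or 14), while over all 8 fits the log2 fold change stayed between 2.01 and 2.23 and the adjusted p at or below 0.00247. In these 5 fits limma-voom called 0 genes of the whole table, with between 3230 and 3391 genes at an unadjusted p below 0.05.

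The genes nearest to the threshold in 67NR were Ctsl, Psap and Sqstm1, none of them called by limma-voom over the samples of the line. Ctsl stood at 1960, 1961, 1880 and 1740 CPM with vehicle and at 2556, 2461, 2478 and 2390 CPM with CIX (log2 fold change 0.38, SE 0.05, adjusted p = 0.00218). Psap stood at 1765, 1803, 1617 and 1493 CPM with vehicle and at 2223, 2334, 2308 and 2222 CPM with CIX (log2 fold change 0.43, SE 0.06, adjusted p = 0.00289). The groups were apart for both. Sample weights called Ctsl, the fit with all 16 samples called Psap, and DESeq2 called both, with Npc2 (log2 fold change 0.28, SE 0.06, adjusted p = 0.0148) and Sqstm1 (0.36, SE 0.07, adjusted p = 0.0083).

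Npc1 stood at 49.4, 52.3, 49.8 and 72.3 CPM with vehicle and at 72.7, 89.2, 97.3 and 91.3 CPM with CIX in 67NR, the groups lying next to each other at vehicle sample 13 and CIX sample 2 without overlap (log2 fold change 0.64, SE 0.15, adjusted p = 0.0192). Neu1 had a log2 fold change of 0.51 (SE 0.12, adjusted p = 0.0189), Pla2g15 one of 0.53 (SE 0.15, adjusted p = 0.037), Ctsh one of 0.30 (SE 0.08, adjusted p = 0.031) and Hexa one of 0.30 (SE 0.08, adjusted p = 0.0295). All 4 had groups that did not overlap. On the lower side, the β-glucuronidase gene Gusb had a log2 fold change of -0.28 (SE 0.08, adjusted p = 0.0438). The remaining 31 genes had adjusted p above 0.05. By role, all 7 genes of lipid breakdown and transfer and all 6 tested cathepsin genes had log2 fold changes above 0 in 67NR, with medians of 0.28 and 0.14, while the 8 autophagy genes were split 3 to 5, with a median of -0.01.

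Whether the response differed between the lines was tested with an interaction term over all 16 samples, the log2 fold change in 4T1 minus that in 67NR. It called 4 of 43 genes, all with a lower response in 4T1. Here 7.86% of 12613 genes were called, 4.8% in the direction of a higher and 3.06% of a lower response in 4T1, against 0 and 4 genes (9.3%) of the list. Higher responses made up 61.1% of all calls, and 47.2% on log2(TPM + 1). At an adjusted p below 0.05, 16 genes of the list passed (37.2%, against 29.3%), 1 higher (2.33%, against 15.1%) and 15 lower (34.9%, against 14.2%). The median difference was -0.25 for the list and -0.02 for all genes. The comparisons share their samples with those within each line and are no independent evidence.

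Trp53inp2 had the most negative difference of the list, -1.46 (SE 0.15, adjusted p = 8.8e-06), and was called in all 16 fits with a sample left out. Npc1 had a difference of -1.28 (SE 0.21, adjusted p = 0.000414), made of a value below 0 in 4T1 and above 0 in 67NR. The call of Npc1 was lost without 67NR vehicle 1, 5 or 9, without 67NR CIX 6, 10 or 14, or without 4T1 vehicle 7, with an adjusted p of at most 0.00134. Npc1 overlaps Rmc1 on the opposite strand, in 5.12% of its 31-base words, and whether the counting used strand is not given in the sources used here.

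Atp6v1a had a difference of -0.68 (SE 0.13, adjusted p = 0.000891) and Ppt1 one of -0.66 (SE 0.12, adjusted p = 0.000784). In 67NR, Atp6v1a stood at 93.9, 99.1, 90.2 and 99.1 CPM with vehicle and at 103, 100.1, 108 and 94.8 CPM with CIX. Ppt1, which overlaps the opposite-strand gene Cap1 in 2.94% of its words, stood there at 118, 106, 114 and 98.6 CPM with vehicle and at 123, 105, 118 and 113 CPM with CIX. Both genes had overlapping groups in 67NR and separate groups in 4T1. These 2 calls lay just inside the threshold, and each was lost in 13 of 16 fits with a sample left out and without a filter, and that of Atp6v1a also with filterByExpr. The fits that still called Atp6v1a were those without 4T1 vehicle 3, 4T1 CIX 8 or 4T1 vehicle 15, and those that still called Ppt1 were without 67NR CIX 6, 4T1 vehicle 11 or 4T1 CIX 16. Over all these fits the differences stayed between -0.75 and -0.61 and the adjusted p at or below 0.0028.

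Of the genes that missed the threshold for the difference, Neu1 came with -1.30 (SE 0.32, adjusted p = 0.00645), Tpp1 with -0.59 (SE 0.13, adjusted p = 0.00396) and Atp6v1h with -0.65 (SE 0.16, adjusted p = 0.00661). DESeq2 placed these 3 below the threshold. Gabarap was the gene with a positive difference among those with an adjusted p below 0.05 (0.43, SE 0.11, adjusted p = 0.00824). Cd68 had a difference of -0.83 (SE 0.27, 95% interval -1.36 to -0.31, adjusted p = 0.0288), so that a difference between the 4.24-fold and the 2.38-fold change was not called. Atp6ap1, Ctsh, Gabarapl2, Lamp2, Grn, Ctsd and Ctsz had differences between -0.58 and -0.33, with adjusted p from 0.0185 to 0.0416. Of Ctsd words, 33.2% occur also in Gm49369, an overlapping gene on the same strand, so that counts of this protease may be split between them.

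Tfeb had the most positive difference, 1.17, with a standard error of 0.46 and an adjusted p of 0.0676. In 4T1 CIX samples it stood at 13.1, 15.4, 12.7 and 13.1 CPM, and in 67NR at 12.9, 12.1, 12.7 and 20.4 CPM with vehicle and at 14.9, 9.70, 16.9 and 7.61 CPM with CIX. All 4 groups overlapped. Its relative Tfe3 had log2 fold changes of -0.04 (SE 0.13, 95% interval -0.29 to 0.22) in 4T1 and 0.06 (SE 0.11, 95% interval -0.16 to 0.27) in 67NR. An mRNA level says nothing of the place of these proteins in the cell, which is where their activity is known to be set.

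The 164 other lysosome and autophagy genes were counted in the same way. In 4T1, 13 of 151 tested genes were called (8.61%, against 9.32% of all genes), 2 higher (1.32%, against 5.34%) and 11 lower (7.28%, against 3.98%). In 67NR, 0 of 148 were called by limma-voom and by edgeR and 8 by DESeq2. Of all 11566 genes, DESeq2 called 1041 there and edgeR 46. With limma-voom, 17 of the 148 had an adjusted p below 0.05 (11.5%, against 17.8% of all genes). An unadjusted p was below 0.05 for 46 (31.1%, against 32.8%). The difference between the lines was called for 13 of 155 (8.39%, against 7.86%), 3 higher and 10 lower. The median log2 fold change of these genes was -0.17 in 4T1 and 0.06 in 67NR.

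Those that fell in 4T1 included hydrolases and the machinery that tags them. The tartrate-resistant phosphatase gene Acp5 fell by 1.43 (SE 0.10, adjusted p = 4.45e-05) on the log2 scale, from between 45.3 and 48.3 CPM with vehicle to between 16.4 and 19.97 CPM with CIX, while in 67NR it did not exceed 0.394 CPM. Acp5 is itself 1 of 5 osteoclast markers, of which the other 4 summed to between 1.52 and 2.49 CPM in 4T1 vehicle samples, to between 0.389 and 1.66 CPM in 4T1 CIX samples and to at most 1.53 CPM in 67NR, with Calcr at 0 in all 4T1 samples. The DNase gene Dnase2a fell by 1.31 (SE 0.19, adjusted p = 0.000674) and Sumf1, which activates lysosomal sulfatases, by 1.04 (SE 0.16, adjusted p = 0.000863). Gnptg and Nagpa, both needed to make the mannose 6-phosphate tag of lysosomal enzymes, fell by 1.08 (SE 0.12, adjusted p = 0.000204) and 1.03 (SE 0.14, adjusted p = 0.00054).

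Of the autophagosome machinery, the LC3 protease gene Atg4a fell by 1.25 (SE 0.16, adjusted p = 0.000432), the lipid scramblase genes Atg9b by 1.00 (SE 0.15, adjusted p = 0.000889) and Tmem41b by 0.94 (SE 0.14, adjusted p = 0.000711), while Rubcn, a negative regulator of autophagosome maturation, rose by 0.91 (SE 0.11, adjusted p = 0.00032). At the nutrient sensing machinery of the lysosome, the GTPase gene Rraga fell by 1.02 (SE 0.11, adjusted p = 0.000188) and Tbc1d7, of the TSC complex, by 0.92 (SE 0.13, adjusted p = 0.000624), whereas the Ragulator gene Lamtor5 rose by 0.80 (SE 0.12, adjusted p = 0.000776).

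Without CIX the lines differed widely. Between 4T1 and 67NR cells with vehicle, 26 of the 43 genes were called, 19 higher and 7 lower in 4T1 (60.5%, 44.2% and 16.3%). Of all 11044 genes tested, 40.0% were called, 20.4% as higher and 19.6% as lower. At an adjusted p below 0.05, 33 genes passed (76.7%, against 67.4%), 23 higher (53.5%, against 33.3%) and 10 lower (23.3%, against 34.1%). The vehicle samples of the lines did not overlap for 32 genes (74.4%, against 61.7%), 23 of them higher in 4T1 (53.5%, against 31.1%) and 9 lower (20.9%, against 30.6%). The median log2 fold change was 0.46 for the list and -0.01 for all genes. The epithelial and fibroblast markers and the mitochondrial share given above differed between the lines too, and their part in these results was not tested.

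**Figure D4:**
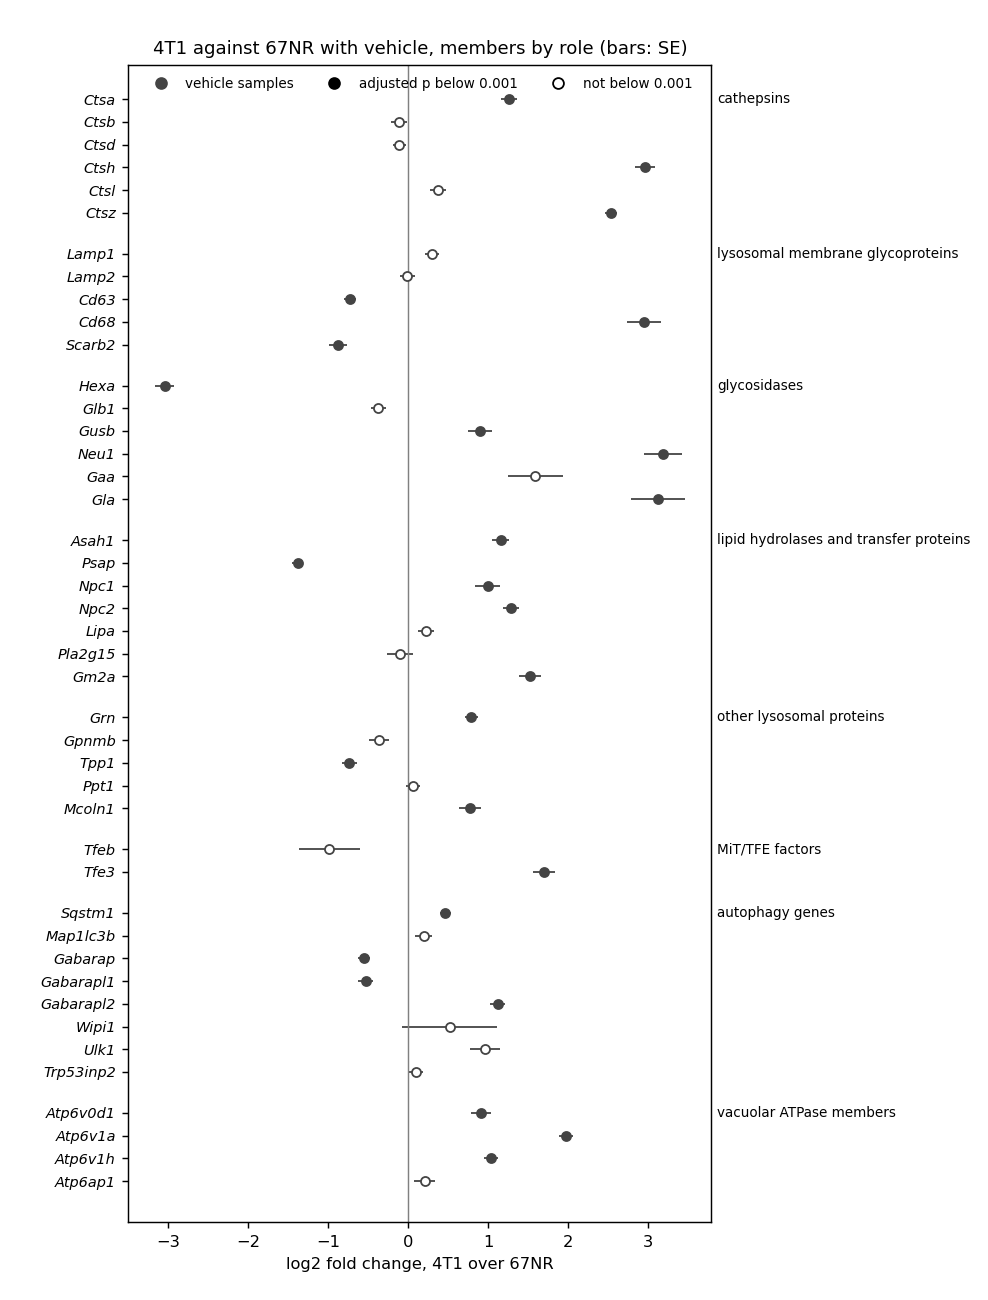
log2 fold change of 4T1 over 67NR with vehicle (x axis) for the 43 tested genes, in rows grouped by role, with bars of 1 standard error and filled points where the adjusted p was below 0.001. Filled points lie on both sides of 0, 19 to the right and 7 to the left, with Neu1, Gla, Ctsh and Cd68 farthest right and Hexa farthest left.

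The 3 log2 fold changes of the list farthest from 0 between the lines were those of glycosidase genes, in both directions, and 4 of 6 glycosidase genes were called. Neu1 stood at 20.1, 24.2, 17.2 and 16.2 CPM in 67NR and at 117, 202, 235 and 166 CPM in 4T1, 9.08-fold higher (log2 fold change 3.18, SE 0.23, adjusted p = 3.23e-06). The α-galactosidase gene Gla stood at 6.95, 3.11, 2.84 and 3.94 CPM in 67NR and at 22.8, 37.4, 47.2 and 35.3 CPM in 4T1, 8.69-fold higher (log2 fold change 3.12, SE 0.34, adjusted p = 3.51e-05). Hexa went the other way, from 131, 135, 122 and 112 CPM in 67NR to 16.2, 14.5, 12.5 and 17.2 CPM in 4T1, 8.28-fold lower (log2 fold change -3.05, SE 0.12, adjusted p = 1.36e-07). In each case the lines were far apart, although replicates of Gla in 67NR vehicle samples varied by more than 30%. Of the words of Hexa, 11.4% also occur on the opposite strand in Tmem202, which stood at no more than 0.866 CPM. Gusb was higher in 4T1 (log2 fold change 0.90, SE 0.15, adjusted p = 0.000496), a call lost in 6 of 8 fits with a sample left out (67NR vehicle 1, 5, 9 or 13, or 4T1 vehicle 7 or 15). Gaa (1.59, SE 0.34, adjusted p = 0.00271) and the β-galactosidase gene Glb1 (-0.38, SE 0.10, adjusted p = 0.00648) were not called by limma-voom over the vehicle samples, while DESeq2, all 16 samples, sample weights and log2(TPM + 1) called Gaa.

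Among cathepsins, Ctsh stood at 22.3, 22.5, 19.8 and 20.5 CPM in 67NR and at 182, 143, 193 and 146 CPM in 4T1, 7.75-fold higher (log2 fold change 2.95, SE 0.12, adjusted p = 1.87e-07). Ctsz was 5.78-fold higher in 4T1 (SE of the log2 fold change 0.08, adjusted p = 6.27e-08) and the protective protein gene Ctsa 2.40-fold higher (SE 0.10, adjusted p = 5.01e-06). The other 3 tested cathepsin genes were not called by limma-voom over the vehicle samples, while Ctsl was called with all 16 samples in the fit. Ctsb had a log2 fold change of -0.12 (95% interval -0.30 to 0.07), Ctsd of -0.11 (95% interval -0.27 to 0.04) and Ctsl of 0.37 (SE 0.10, adjusted p = 0.00923). Of the words of Ctsb, 12.4% occur on the opposite strand in other genes, foremost Fdft1, which stood at up to 368 CPM.

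Membrane glycoproteins and lipid genes were split. Cd68 was 7.70-fold higher in 4T1 (log2 fold change 2.95, SE 0.21, adjusted p = 2.88e-06), so that the 67NR samples with CIX still lay below the 4T1 samples with vehicle. The tetraspanin gene Cd63 (-0.73, SE 0.08, adjusted p = 2.78e-05) and Scarb2, which encodes the lysosomal membrane protein LIMP-2 (-0.88, SE 0.12, adjusted p = 0.000122), were lower in 4T1. Of the words of Cd63, 15.9% are shared with other genes, foremost the pseudogene Cd63-ps. The call of Scarb2 was lost without 67NR vehicle 1, 5 or 9, at an adjusted p of at most 0.00119, and on log2(TPM + 1). Lamp1 had a log2 fold change of 0.30 (SE 0.09, adjusted p = 0.0148) and Lamp2 of -0.01 (95% interval -0.19 to 0.17).

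Psap stood at 1765, 1803, 1617 and 1493 CPM in 67NR and at 638, 656, 633 and 620 CPM in 4T1, 2.61-fold lower in 4T1 (log2 fold change -1.38, SE 0.07, adjusted p = 4.81e-07). Of the 7 genes of lipid breakdown and transfer, Psap was the 1 called lower and 4 were called higher in 4T1. The log2 fold change was 1.52 for Gm2a (SE 0.14, adjusted p = 1.15e-05), 1.28 for Npc2 (SE 0.10, adjusted p = 5.73e-06), 1.15 for Asah1 (SE 0.11, adjusted p = 1.41e-05) and 0.99 for Npc1 (SE 0.15, adjusted p = 0.000366). Lipa had a log2 fold change of 0.22 (SE 0.10, adjusted p = 0.0789) and Pla2g15 of -0.11 (SE 0.16, adjusted p = 0.582), and limma-voom called neither. Here the call of Npc1 was lost in 6 of 8 fits with a sample left out (67NR vehicle 1, 5 or 9, or 4T1 vehicle 7, 11 or 15).

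Of the other lysosomal proteins, Grn was higher in 4T1 (0.79, SE 0.08, adjusted p = 1.92e-05), as was the calcium channel gene Mcoln1 (0.77, SE 0.14, adjusted p = 0.000991), which lay at the threshold and was called in 1 of 8 fits with a sample left out, the one without 4T1 vehicle 3, and neither by edgeR nor without a filter. Tpp1 was lower in 4T1 (-0.74, SE 0.09, adjusted p = 0.000102). Ppt1 had a log2 fold change of 0.06 (95% interval -0.12 to 0.23). The melanosome and lysosome glycoprotein gene Gpnmb had one of -0.37 (SE 0.13, adjusted p = 0.0311), and melanocyte markers summed to no more than 2.31 CPM in any sample.

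Tfe3 was 3.24-fold higher in 4T1, at 109, 110, 146 and 103 CPM against 37.2, 37.7, 29.7 and 39.6 CPM in 67NR (adjusted p = 5.07e-06), whereas Tfeb had a log2 fold change of -0.99 (SE 0.38, adjusted p = 0.0441) with overlapping samples. All 4 4T1 samples of Tfe3 lay above all 67NR samples.

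Among autophagy genes, Gabarapl2 was 2.17-fold higher in 4T1 (adjusted p = 8.73e-06), while Gabarap was 1.47-fold lower (adjusted p = 0.000129) and Gabarapl1 1.45-fold lower (adjusted p = 0.000701). Sqstm1 was 1.38-fold higher (adjusted p = 0.000344). The calls of Gabarapl1 and Sqstm1 were each lost in 6 of 8 fits with a sample left out, in common for 67NR vehicle 5, 9 or 13 and 4T1 vehicle 7 or 15, besides 67NR vehicle 1 for Gabarapl1 and 4T1 vehicle 11 for Sqstm1. Sqstm1 was also not called with all 16 samples in the fit, nor Gabarapl1 with library size scaling, without a filter or on log2(TPM + 1). Of the words of Sqstm1, 16.3% occur on the opposite strand in Mrnip, which stood at no more than 13.1 CPM. Ulk1, the kinase that starts autophagy, had a log2 fold change of 0.95 (SE 0.19, adjusted p = 0.00156). Limma-voom over the vehicle samples did not call it, while DESeq2, all 16 samples, sample weights, library size scaling and log2(TPM + 1) did.

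Most tested genes of the proton pump were called higher in 4T1. Atp6v1a was 3.91-fold higher, at 350, 392, 417 and 337 CPM against 93.9, 99.1, 90.2 and 99.1 CPM (log2 fold change 1.97, SE 0.09, adjusted p = 2.18e-07). With CIX, Atp6v1a in 4T1 still lay above every 67NR sample. Atp6v1h was 2.05-fold (adjusted p = 8.88e-06) and Atp6v0d1 1.87-fold higher (adjusted p = 0.000149). Over the whole pump, 14 of 19 tested genes were called (73.7%, against 40.0% of all genes), 13 higher and 1 lower, and 18 of 19 had a log2 fold change above 0, with a median of 0.82. The exception was Atp6v0e2, lower in 4T1 by a log2 fold change of -0.92 (SE 0.15, adjusted p = 0.000413).

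Over the 164 other lysosome and autophagy genes, 71 of 145 tested were called between the lines (49.0%, against 40.0% of all genes), 46 higher (31.7%, against 20.4%) and 25 lower (17.2%, against 19.6%). The filter on low values left out the other 19 genes, of which 7 reached 1 TPM in each vehicle sample of 4T1 alone and 2 in each vehicle sample of 67NR alone, so that these counts do not hold genes near 0 in a single line. Sorl1, a sorting receptor singled out after its values were seen, was such a gene, at 0.0794, 0.488, 0.433 and 0.0428 CPM in 67NR and at 1605, 920.4, 2048 and 1103 CPM in 4T1. Among the tested genes, the mannosidase gene Man2b1 was 11.9-fold higher in 4T1 (adjusted p = 6.27e-08), the sorting adaptor gene Gga2 6.86-fold higher (adjusted p = 1.28e-06) and Atg9b 6.95-fold higher (adjusted p = 1.8e-06). On the other side, the cathepsin gene Ctso was 6.51-fold lower (adjusted p = 1.11e-06), the lysosomal polyamine exporter gene Atp13a2 4.79-fold lower (adjusted p = 4.68e-06) and the sulfatase gene Arsb 4.55-fold lower (adjusted p = 5.4e-06). Hydrolase genes thus differed in both directions, as Neu1 and Hexa did in the list itself.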

How the data were processed

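RNA of 16 cell line samples was sequenced single-end from a stranded poly-A library. The authors quantified transcripts with Salmon 0.12 against the mouse transcriptome and deposited estimated counts per gene, summed with tximport. These estimated counts were rounded to whole numbers. The total per sample was between 21715700 and 29450629, which sets the detection floor of 3 counts given with the results. All 16 columns were mapped to samples by their labels, and 32911 of 33072 genes matched the gene annotation. TPM was approximated with the mean transcript length of a gene.

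Genes with TPM below 1 in more than 3 samples of a comparison were left out (for the interaction, where this held in both lines). The test was limma-voom (limma 3.58.1, edgeR 4.0.16 for TMM, R 4.3.3), with Benjamini-Hochberg adjustment over all genes tested. Calls were made at an adjusted p below 0.001, and test, adjustment and threshold follow the methods of the study. The study does not say which samples entered its fit. It reported more differentially expressed genes for CIX in 4T1 than the 1087 called here over the samples of the line. Its count was also above the 2680 called with all 16 samples, a fit that called 8 genes of the list. The 4 comparisons were fitted on the samples of the groups concerned and share samples. Alternatives were edgeR's quasi-likelihood test, DESeq2 1.42.0, DESeq2 size factors, library size scaling, no filter, filterByExpr, sample quality weights, all 16 samples in a fit, a threshold of 0.05, log2(TPM + 1) with a pseudocount of 1, leaving out each sample and, added after seeing the data, a block of consecutive sample numbers. The fits for CIX in 4T1 and for the difference were also run on simulated counts. These counts had the same dispersion for every gene, unlike the real replicates, so that the run does not give the error rates of the results. Replicates differed by more than sampling noise (chi-square per gene from 16.9 to 109). Of other lysosome and autophagy genes, at most 3 called genes per list and direction were named. The genes and lists were chosen with earlier results of these data known. The result of a single gene of these lists is not reported here.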

Additional observations from a re-analysis of the deposited data

Results flagged for a closer look

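Single samples stood apart from the other 3 of their group, by Dixon's criterion, in 11 of 172 groups of CPM values, where chance gives about 1 in 20 (8.6). In 67NR vehicle sample 13, Npc1 was at 72.3 (others 49.4 to 52.3), Tfeb at 20.4 (12.1 to 12.9), Ctsz at 53.7 (64.3 to 65.4) and Scarb2 at 85.8 CPM (103 to 106). In 67NR vehicle sample 1, Cd68 was at 11.8 (7.52 to 7.98) and Sqstm1 at 896 CPM (761 to 778). In 67NR with CIX, Gpnmb was at 155 CPM in sample 2 (95.7 to 104) and Gaa at 135 CPM in sample 6 (115 to 117). In 4T1, Ctsd was at 608 CPM in vehicle sample 15 (697 to 714), Cd63 at 503 CPM in CIX sample 12 (456 to 464) and Tfeb at 15.4 CPM in CIX sample 8 (12.7 to 13.1).

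The response to CIX differed between the lines, by the interaction term at an adjusted p below 0.001, for 4 genes of the list and for other lysosome and autophagy genes, which are given here except for a gene that is not reported. In the list the log2 difference (4T1 minus 67NR) was -1.46 for Trp53inp2, -1.28 for Npc1, -0.68 for Atp6v1a and -0.66 for Ppt1. Among hydrolases it was -1.74 for Dnase2a and -0.59 for Scpep1. It was -0.78 for the lysosomal channel gene Tpcn1, -0.90 for Atp6v1b2, a V1 subunit of the proton pump, and -1.11 for Gnptg. In the autophagosome machinery it was -1.75 for Atg9b, -0.88 for Tmem41b and 0.85 for the kinase gene Ulk2. Among nutrient sensing genes it was 0.94 for Lamtor5, 0.73 for Lamtor2, -0.98 for Rraga and -0.99 for Tbc1d7.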

How the results depend on the processing

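Each gene of the list that was called in a comparison, or had an adjusted p below 0.05 there, kept its direction under the alternatives (10 within a line or between the vehicle groups, 9 for the difference), with the block described last and with each sample left out. The number of genes of the list called in 4T1 was 2, and became 9 with DESeq2, 8 with all 16 samples in the fit, 6 with sample quality weights, 4 with library size scaling and 18 at a threshold of 0.05. With a sample left out it lay between 1 and 2. In 67NR it was 1, and became 5 with DESeq2, 2 with all 16 samples, 2 with sample weights and 12 at 0.05, and lay between 0 and 1 with a sample left out. For the difference between the lines it was 4, and became 7 with DESeq2, 2 without a filter and 16 at 0.05, and lay between 1 and 4 with a sample left out. Between the lines with vehicle it lay between 20 and 26 with a sample left out. The median log2 fold change of the list in 4T1 lay between -0.157 and -0.0592 with a sample left out, the last without 4T1 vehicle sample 11. In 4T1 it was -0.209 on log2(TPM + 1), -0.197 with library size scaling and -0.0748 without a filter. The median between the lines with vehicle was 0.558 on log2(TPM + 1). The causes were not tested.

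Over all 11664 genes tested, 1087 were called in 4T1, against 3095 with DESeq2, 2680 with all 16 samples and 2523 with sample weights. The count was 4981 at 0.05 and between 269 and 975 with a sample left out. In 67NR 45 of 11566 were called, against 1041 with DESeq2, 247 with weights, 151 with all 16 samples and 27 on log2(TPM + 1). The count there was 2057 at 0.05 and between 0 and 75 with a sample left out. For the difference 992 were called, against 1980 with DESeq2, 1913 with weights, 3699 at 0.05 and between 654 (without 4T1 vehicle 7) and 1050 with a sample left out. Between the lines with vehicle 4419 were called, against 7449 at 0.05 and between 3495 and 4366 with a sample left out. The share of higher among called genes was 57.3% in 4T1 and 61.1% for the difference, and 45.7% and 47.2% on log2(TPM + 1). The groups share no replicate numbers, and the labels do not say that any samples were handled together. After the data were seen, a replicate block of 4 consecutive sample numbers, 1 of each group, was tried. Deviations from the group means of same-set samples correlated across genes between 0.0438 and 0.366 in 4T1, -0.0651 and 0.118 in 67NR and -0.246 and 0.227 between the vehicle groups. Between samples of different sets the ranges were -0.229 to 0.187, -0.0799 to 0.0929 and -0.298 to 0.407. In these comparisons 5, 4 and 2 of 8 samples correlated best with their own set. In 4T1, limma-voom gave 6790 genes an unadjusted p below 0.05 with the block and 5965 without it. The main fits do not use the sets as pairs, and whether the samples of a set belong together was not tested. With this block 4 genes of the list were called in 4T1, with Atp6v1a and Neu1 gained, and 4 for the difference, with Neu1 gained and Ppt1 lost. Between the lines with vehicle 17 were called, with Atp6v0d1, Gabarap, Gabarapl1, Gusb, Mcoln1, Npc1, Scarb2, Sqstm1 and Tpp1 lost. In 67NR the call of Cd68 was lost, and limma-voom with the block called 0 genes in the whole table, with 3978 at an unadjusted p below 0.05, against 1041 called by DESeq2 without it.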
